A study of Rattus norvegicus with 12 samples.

Results

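Matrix metalloproteases, ADAM and ADAMTS proteases, ADAMTS-like proteins and the tissue inhibitors of metalloproteases (TIMPs) were followed in the left and right atria of rats with and without volume overload of the heart. Members were genes whose symbol, named alone for a probe set in the annotation of the array, began with Mmp, Timp, Adam, Adamts or Adamtsl and a digit. They numbered 55 of the 14217 genes named on the array: 17 MMPs, 4 TIMPs, 18 ADAMs, 12 ADAMTSs and 4 ADAMTS-like genes, with 79 probe sets between them. For the 16 members with more than 1 probe set, the brightest on average was used, and the others are given for members on which the results turn.

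Left and right atrial appendages came from male Sprague-Dawley rats of 225 to 275 g. The 4 groups were left atrium shunt, left atrium sham, right atrium shunt and right atrium sham, each with 3 arrays. The shunt groups had had an aorto-caval shunt, an opening made between the aorta and the vena cava that sends arterial blood back to the heart, and the sham groups the operation without it, 28 days before. Each array held RNA pooled from 2 tissues, so animals cannot be told apart within an array, and nothing in the labels says whether a left and a right pool came from the same rats. The strain entry of the labels lists ventricles beside atria. Atrial heart muscle markers were strong in every group, with 7 of them averaging between 11.34 and 11.67 on the log2 scale of the arrays. All values are log2 RMA values (the deposited scale, on which a difference of 1 is 2-fold), and signals of different probe sets are not comparable as amounts of RNA.

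Metalloproteases cut the extracellular matrix and proteins on the cell surface with a zinc ion in their active site. MMPs degrade collagens and other matrix proteins and are made as inactive precursors. ADAMs are membrane proteins, several of which release growth factors and cytokines from the cell surface. ADAMTSs are secreted and act mainly on proteoglycans and on fibrillar proteins, and the ADAMTS-like proteins share their ancillary domains but lack the protease. TIMPs bind the active site of these enzymes, and the balance of enzyme and inhibitor is a textbook theme of remodelling in the overloaded heart. In tissue that mixes many cells, fewer cells of a type and less RNA per cell cannot be told apart.

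The inducible MMPs of rat chromosome 8 gave weak signals on every array. Stromelysin and collagenase genes are known to be switched on through a site for AP-1, the Fos and Jun factor, close to their start. Of 300-base promoter windows (250 bases before the start to 50 after, RefSeq, GRCr8), 34 of the 55 members had one, and TGANTCA, searched on both strands, was found in 6 of them (17.6%), against 7.33% of all 33469 windows. MMPs held 5 of those 6 matches, among 11 MMP windows. The 5 sites are shown because they stand for the known route by which these genes are induced. Capitals mark the AP-1 match, with 25 bases on each side, 5′ to 3′ on the plus strand.
Mmp3, chr8:12925185-12925241: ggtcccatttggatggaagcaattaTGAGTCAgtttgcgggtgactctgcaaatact
Mmp10, chr8:12974621-12974677: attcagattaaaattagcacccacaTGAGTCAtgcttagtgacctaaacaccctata
Mmp12, chr8:12866540-12866596: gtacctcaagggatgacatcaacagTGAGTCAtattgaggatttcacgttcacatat
Mmp13, chr8:12782738-12782794: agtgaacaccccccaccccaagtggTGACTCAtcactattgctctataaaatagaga
Mmp7, chr8:13132938-13132994: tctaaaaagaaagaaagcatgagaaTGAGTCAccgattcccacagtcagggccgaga

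The match began 71 bases before the start in Mmp3 (stromelysin-1), 61 in Mmp10 (stromelysin-2), 87 in Mmp12 (macrophage elastase), 66 in Mmp13 (collagenase-3) and 80 in Mmp7 (matrilysin). Over all 12 arrays these 5 genes lay between 2.72 and 4.25, under the median of all probe sets (5.46). Their shunt minus sham differences, in either atrium or averaged, ran from -0.19 to 0.17 on the log2 scale. None of the 5 was called in any comparison. The lowest adjusted p was 0.0532 (limma), for Mmp10 in left minus right in shunt animals (0.24), and it passed under some other settings, array weights among them.

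In all, 21 members stayed under that median on every array, between 2.72 and 5.30. They were 9 MMPs, 9 ADAMs and 3 ADAMTSs, among them Mmp9 (gelatinase B) and Mmp8 (neutrophil collagenase). Adam2, Adam3a, Adam7 and Adam18, known from sperm and the male tract, were also among them. By their mean over all arrays, 31 members reached the median: 7 MMPs, all 4 TIMPs, 7 ADAMs, 9 ADAMTSs and all 4 ADAMTS-like genes.

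Most calls among these genes lay between the chambers. In shunt animals 23 of the 55 members differed between left and right atrium (limma, adjusted p under 0.05 over 31042 probe sets), 17 higher and 6 lower in the left. The share of members, 41.8%, stood beside 37.7% of all probe sets (20.2% called higher and 17.4% called lower). In sham animals 25 members differed, 16 higher and 9 lower in the left, or 45.5% against 36.1% of all probe sets (20.1% called higher and 16.1% called lower). Both shares lie close enough to the background that they say little about these genes in particular. Among the 31 brighter members 18 differed in each comparison (58.1%), against 48.5% of the brighter probe sets in shunt and 48.4% in sham animals. The median left minus right difference of the members was 0.15 in shunt and 0.10 in sham animals, against 0.05 and 0.02 over all probe sets. Left pools lay above right pools without overlap for 24 members in shunt and 20 in sham animals (27.7% and 27.2% of all probe sets), and below them for 7 and 10 (21.3% and 23.2%).

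The same genes recurred in both conditions, which share no arrays. Left values were higher in shunt and in sham animals for 14 members, which 12.8% of all probe sets did. They were Adamts8, Adam9, Adamtsl4, Adamtsl1, Adamtsl5, Timp4, Timp2, Mmp24, Mmp2, Mmp15, Adam15, Adam22, Adam10 and Adam19. Left values were lower in both for Adamts19, Adam4, Adam23 and Adam17, as for 11.3% of all probe sets. No member was called in opposite directions, which 0.132% of all probe sets were. Calls in shunt animals alone numbered 5 (13.5% of all probe sets) and calls in sham animals alone 7 (11.9% of all probe sets). No left minus right difference of a member was shown to depend on the shunt by the interaction test.

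**Figure D1:**
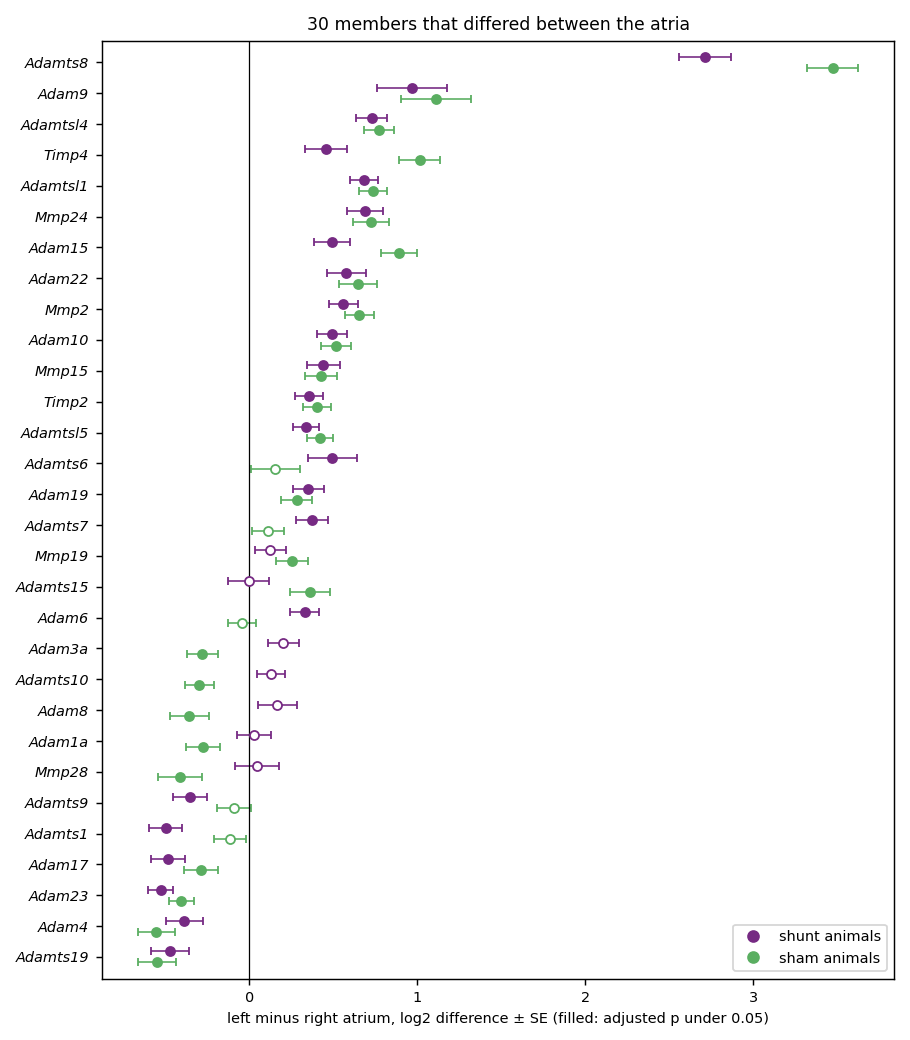
Left minus right log2 difference (x axis, ± SE of the fit) of the 30 members called in shunt or in sham animals (rows), with shunt animals in purple above sham animals in green and filled points for an adjusted p under 0.05. Adamts8 stands far to the right at 2.71 in shunt and 3.47 in sham animals, and the other members lie between -0.55 and 1.11.

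RNA quality measures also differed by chamber. On control probe sets for beta-actin, signal at the 3′ end minus that at the 5′ end, higher where transcripts are less complete, was 1.14 to 1.39 on the left and 1.58 to 2.03 on the right arrays. The same measure for GAPDH was 0.18 to 0.28 on the left and 0.32 to 0.40 on the right. Neither overlapped between the chambers, and the part of this in the left minus right values was not tested. Markers of several other cell types were called between the chambers as well. Of all probe sets, 37.7% were called there in shunt and 36.1% in sham animals. Smooth muscle markers averaged 7.33 to 7.42 on left and 6.88 to 6.98 on right shunt arrays, with 4 of 6 higher in the left in each condition. Of 11 macrophage markers, 6 were lower in the left in shunt and 3 in sham animals, and of 7 ventricular muscle markers 4 were lower in each condition, while Lbh was higher in both and Mpped2 in sham animals. Of 6 mesothelial markers, 2 were higher and 1 lower in the left in shunt animals, and 4 were higher in sham animals. Of 9 endothelial markers, 2 were higher and 3 lower in shunt animals, and 5 were higher and 1 lower in sham animals. Of 8 fibroblast markers, 2 were higher and 2 lower in shunt animals, and 3 were higher and 1 lower in sham animals. In shunt animals 4 of 9 neuronal and 3 of 8 adipocyte markers were higher in the left, against 0 and 1 in sham animals. Of 6 mast cell markers, 1 was higher and 2 lower in shunt animals, and 1 was higher and 1 lower in sham animals. Of 3 erythrocyte markers, 2 were higher in shunt and 1 in sham animals. No neutrophil or atrial muscle marker was called between the chambers. Their part was not tested either.

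Adamts8, a secreted protease of the proteoglycan-cutting group, differed most. It lay at 8.82, 8.70 and 9.0 in left atrium shunt pools, against 6.50, 5.86 and 6.01 in right atrium shunt pools. In sham pools it lay at 9.17, 9.55 and 9.36 in the left, against 5.79, 5.83 and 6.03 in the right. Every left pool was above every right pool, by more than 2 log2 units. The difference was 2.71 ± 0.15 (6.55-fold) in shunt animals (SE, n = 3 pools per group, limma adjusted p = 6.62e-07). In sham animals it was 3.47 ± 0.15 (11.1-fold, limma adjusted p = 6.92e-08).

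Timp4, the TIMP best known from the heart, followed the same side. Its values were 6.55, 6.39 and 6.20 in left shunt pools, against 5.97, 5.84 and 5.97 in right shunt pools. In sham pools they were 6.72, 7.21 and 7.02 in the left, against 5.88, 5.92 and 6.11 in the right. The groups did not overlap in either condition. The left was higher by 0.46 ± 0.12 in shunt animals (limma adjusted p = 0.0119) and by 1.01 ± 0.12 in sham animals (2.02-fold, limma adjusted p = 5.42e-05).

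Among the MMPs, Mmp2 (gelatinase A) lay at 10.05, 10.18 and 9.86 in left shunt pools, against 9.46, 9.45 and 9.50 in right shunt pools. Its sham values were 9.95, 10.13 and 10.07 in the left, against 9.36, 9.38 and 9.45 in the right. Left exceeded right without overlap, by 0.56 ± 0.09 in shunt (limma adjusted p = 0.000389) and 0.66 ± 0.09 in sham animals (limma adjusted p = 9.45e-05). A second, much dimmer Mmp2 probe set differed by 0.17 and 0.06, which did not pass. Mmp24 and Mmp15, membrane-anchored MMPs, were higher in the left by 0.69 and 0.44 in shunt and by 0.72 and 0.43 in sham animals. Mmp14, the membrane MMP that activates Mmp2 together with Timp2, was uneven on its brighter probe set. It lay at 9.12, 9.52 and 8.99 in left shunt pools, against 9.34, 9.34 and 9.08 in right shunt pools. In sham pools it lay at 9.70, 9.32 and 9.73 in the left, against 9.43, 8.56 and 9.35 in the right. The chambers overlapped in both conditions, and it differed by -0.04 ± 0.21 in shunt and by 0.47 ± 0.21 in sham animals, neither past the threshold. Its dimmer probe set was higher in the left by 0.56 ± 0.10 in shunt and 0.64 ± 0.10 in sham animals, both past it (limma adjusted p = 0.000999 and 0.000313). In sham animals alone, Mmp28 (epilysin) was lower in the left by 0.41 and Mmp19 higher by 0.25, both on dim probe sets. Mmp28 averaged 5.17 over all arrays, and Mmp19 stayed under the median of all probe sets on each. Left and right Mmp19 pools overlapped, and its call was lost when 9 of the 12 arrays were left out in turn. The Mmp28 call was lost without right sham replicate 1 or 2 or left sham replicate 3.

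Timp2, which both inhibits MMPs and helps Mmp14 to activate Mmp2, was higher in the left by 0.36 ± 0.08 in shunt and 0.40 ± 0.08 in sham animals (limma adjusted p = 0.00514 and 0.00236). Both of its probe sets were called in both conditions. Timp1 differed by 0.11 ± 0.14 in shunt and 0.17 ± 0.14 in sham animals, with intervals (95%) of -0.18 to 0.41 and -0.13 to 0.47, and did not pass.

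Timp3, the matrix-bound TIMP that also restrains Adam17 and several ADAMTSs, had 4 probe sets that disagreed. The brightest, which stood for the gene, differed by 0.02 in shunt and 0.10 in sham animals and did not pass. The next brightest was lower in the left, by 0.29 and 0.30 (limma adjusted p = 0.0119 and 0.00897). The third differed by 0.14 in shunt animals and was higher in the left by 0.32 in sham animals. The dimmest was higher in the left by 1.59 and 1.89 (limma adjusted p = 2.16e-05 and 3.98e-06). No left to right direction is therefore given for this gene.

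**Figure D2:**
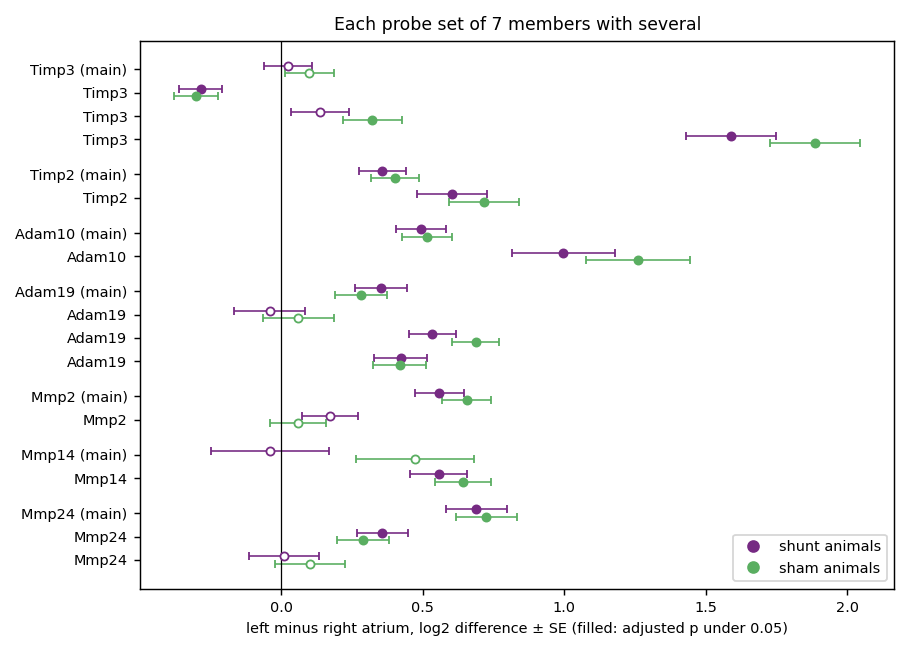
Left minus right log2 difference (x axis, ± SE) for every probe set of 7 members that have several, from the brightest (marked main) downward within each gene, shunt animals in purple above sham animals in green, filled where the adjusted p was under 0.05. The Timp3 probe sets span -0.30 to 1.89, while those of Timp2 and Adam10 lie on one side.

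Of the ADAMs with a known shedding role, Adam10 and Adam17 went opposite ways. Adam10 lay at 7.81, 7.86 and 7.71 in left shunt pools, against 7.25, 7.24 and 7.41 in right shunt pools. Its difference was 0.49 ± 0.09 in shunt and 0.52 ± 0.09 in sham animals (limma adjusted p = 0.000963 and 0.000616), and 1.0 and 1.26 on its other probe set. Adam17, the enzyme that releases tumour necrosis factor, lay at 8.79, 8.78 and 8.39 in left shunt pools, against 9.17, 9.20 and 9.05 in right shunt pools. Its left minus right difference was -0.48 ± 0.10 in shunt and -0.29 ± 0.10 in sham animals (limma adjusted p = 0.00289 and 0.0431), without overlap in either condition. The sham call of Adam17 was lost when 9 of the 12 arrays were left out in turn.

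Adam15 was higher in the left by 0.49 in shunt and 0.89 in sham animals, Adam9 by 0.97 and 1.11, and Adam19, a protease needed for heart valve formation in mice, by 0.35 and 0.28. Of the other 3 Adam19 probe sets, 2 were also called higher in both conditions and 1 lay at -0.04 and 0.06. Adam9 and Adam22 averaged under the median of all probe sets, at 5.16 and 5.11. Adam22 and Adam23, ADAMs without protease activity, parted: Adam22 was higher in the left by 0.58 and 0.65, and Adam23 lower by 0.53 and 0.40. The other Adam23 probe sets lay at -0.09 and -0.10 in shunt and at -0.11 and -0.13 in sham animals, none of them called. With its 3 probe sets averaged, Adam22 no longer passed, at 0.08 and 0.15. Adam4 was lower in the left by 0.39 and 0.55, at values no higher than 5.30. The calls of Adam6 (0.33) in shunt animals, and of Adam3a (-0.28) and Adam8 (-0.36) in sham animals, were also made on dim probe sets. A second Adam8 probe set lay at 0.06 in sham animals, and the call was lost as the mean of both. Adam1a was lower by 0.28 in sham animals, at 6.07, 5.97 and 5.98 in left, against 6.43, 6.12 and 6.30 in right sham pools. With each of the 12 arrays left out in turn, the Adam1a call held in only 3 fits. It was also lost with array medians subtracted, with trend and robust eBayes and with the replicate block.

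Of the 4 ADAMTS-like genes, 3 were higher in the left in both conditions. Adamtsl1 was higher in the left by 0.68 ± 0.08 in shunt and 0.74 ± 0.08 in sham animals (limma adjusted p = 7.35e-05 and 2.97e-05). Adamtsl4, a binder of fibrillin microfibrils, was higher by 0.73 ± 0.09 and 0.77 ± 0.09 (limma adjusted p = 8.49e-05 and 3.95e-05), and Adamtsl5 by 0.34 and 0.42. Adamtsl2 differed by 0.34 and 0.29 and did not pass. Among the other ADAMTSs, Adamts19 was lower in the left in both conditions, by 0.47 and 0.55. In shunt animals alone Adamts1 (-0.50) and Adamts9 (-0.35), which cut versican, were lower in the left, and Adamts7 (0.37) and Adamts6 (0.49) higher. In sham animals alone Adamts15 was higher by 0.36 and Adamts10 lower by 0.30. The second probe set of Adamts9 lay at 0.28 in shunt animals and did not pass, and that of Adamts10 showed no such difference in sham animals (limma adjusted p = 0.986). As the mean of both probe sets neither gene passed. The Adamts9 call was also lost when 2 of the 12 arrays were left out in turn (right shunt replicate 1 and left shunt replicate 2), and the Adamts10 call when 3 were. Adamts6 stayed under the median of all probe sets on every array. Its call was lost without right shunt replicate 2 or left shunt replicate 3, and when only the compared groups were fitted.

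The shunt itself changed few members. In the left atrium 1 of 55 members passed the threshold (1.82%), against 0.751% of all probe sets (0.467% called lower), and that member fell. In the right atrium 1 passed (1.82%), against 2.97% of all probe sets (1.9% called higher), and it rose. Averaged over both atria 3 passed (5.45%), 2 higher and 1 lower, against 3.86% of all probe sets (2.31% called higher and 1.55% called lower). These shares lie near the background. The median effect of the members was 0.02 in the left, -0.01 in the right and -0.03 averaged, against -0.001, -0.003 and -0.004 for all probe sets. For each of the 30 brighter members not called in an atrium, the 95% interval of the shunt effect lay within 1 log2 unit of 0, so a 2-fold change lay outside it.

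**Figure D3:**
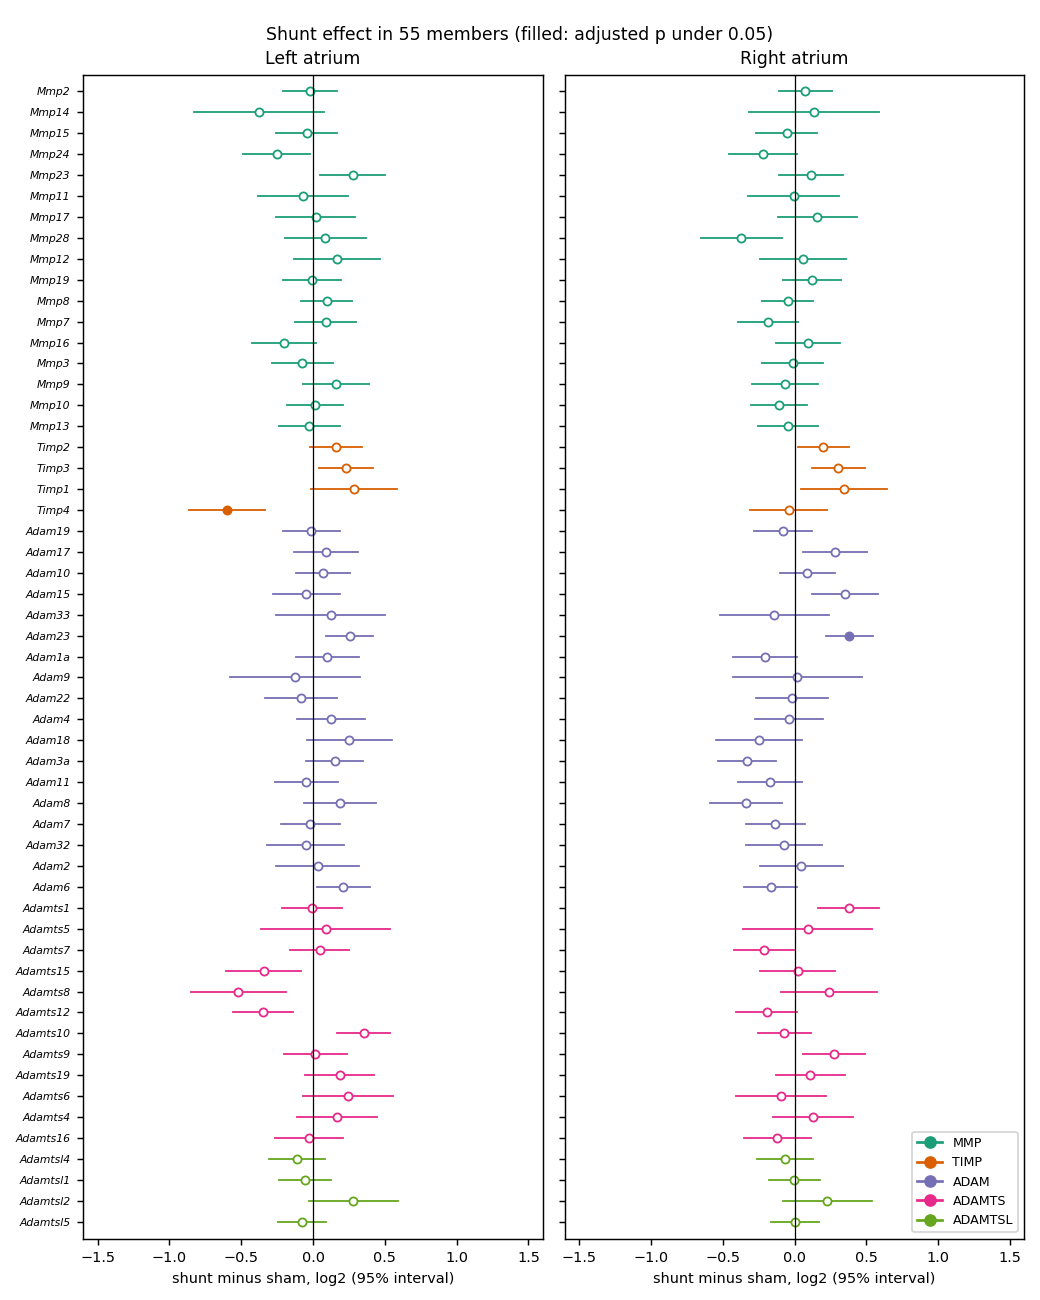
Shunt minus sham log2 difference with its 95% interval (x axis) for all 55 members (rows, coloured by family and ordered by signal within it), left atrium in the left panel and right atrium in the right panel. The filled points, with an adjusted p under 0.05, are Timp4 in the left atrium (-0.60) and Adam23 in the right atrium (0.38).

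Timp4 fell in the left atrium, where its sham level was highest. It lay at 6.55, 6.39 and 6.20 in left shunt pools, against 6.72, 7.21 and 7.02 in left sham pools. The groups did not overlap, and the lowest shunt value belonged to replicate 3. The change was -0.60 ± 0.12 (SE, n = 3 pools per group, limma adjusted p = 0.0481). In the right atrium Timp4 was at -0.04 ± 0.12 (adjusted p = 0.895 in the same limma fit). The difference of these effects, -0.56 ± 0.17, did not pass (limma adjusted p = 0.211). The call was lost when 10 of the 12 arrays were left out in turn, and when the model was fitted to the left atrium without the right (limma adjusted p = 0.271).

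Among the left shunt pools, replicate 3 differed in fat and nerve markers. Its 9 neuronal markers averaged 4.88, against 4.22 and 4.43 in the other shunt pools and 4.03 to 4.13 in left sham pools. Its 8 adipocyte markers averaged 7.36, against 5.97 and 6.48 in the other shunt pools and 6.18 to 6.45 in left sham pools. Ucp1, a brown fat gene, was 7.56 there, against 4.22 and 4.66 in the other shunt pools. Without this array the Timp4 difference was -0.51 (limma adjusted p = 0.0704). No adipocyte marker of 8 was called between shunt and sham in either atrium. Of the 9 neuronal markers Prph and Uchl1 rose in the left atrium and Prph in the right, and the part of these cells in the Timp4 value was not tested.

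The promoters of Timp4 and Timp3, the inhibitors called after the shunt, are shown side by side. Both are 5′ to 3′ on the minus strand of GRCr8, from 250 bases before the start to 50 after (RefSeq). Capitals mark GGGCGG, the Sp1 motif, or its reverse complement CCGCCC.
Timp4, chr4:149985155-149985454: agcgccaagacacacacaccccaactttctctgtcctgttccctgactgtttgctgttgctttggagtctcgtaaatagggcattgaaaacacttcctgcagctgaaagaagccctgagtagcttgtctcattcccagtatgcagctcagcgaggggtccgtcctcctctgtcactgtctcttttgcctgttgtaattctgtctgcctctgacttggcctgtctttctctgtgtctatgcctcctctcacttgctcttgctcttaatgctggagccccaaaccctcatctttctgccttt
Timp3, chr7:19459509-19459808: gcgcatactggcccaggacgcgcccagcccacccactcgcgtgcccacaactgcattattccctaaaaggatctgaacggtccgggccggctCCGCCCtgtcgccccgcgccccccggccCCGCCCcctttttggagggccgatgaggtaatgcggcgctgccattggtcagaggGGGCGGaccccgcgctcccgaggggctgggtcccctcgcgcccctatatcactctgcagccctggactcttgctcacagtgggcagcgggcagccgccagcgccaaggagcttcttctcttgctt

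The Timp3 window held 3 such matches and was 68.7% G and C, and the Timp4 window, 50.3% G and C, held none. Of all 33469 windows 33.1% held the motif, as did 20 of the 34 members' windows. Neither window held TGANTCA. The core of T-box sites, also searched on both strands and written AGGTGT, stood in 13.6% of all windows and in neither of these. GATA sites, searched as AGATAA, stood in 11.6% of all windows and in neither of these.

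Timp3 rose averaged over both atria. It lay at 11.30, 11.43 and 11.19 in left shunt pools, against 11.04, 11.15 and 11.05 in left sham pools. In the right atrium it lay at 11.32, 11.34 and 11.19 in shunt pools, against 11.10, 10.97 and 10.87 in sham pools. Shunt and sham did not overlap in either atrium. The average change was 0.27 ± 0.06 (1.20-fold, limma adjusted p = 0.0296), with 0.23 in the left and 0.30 in the right, neither past the threshold alone. The next brightest Timp3 probe set also rose, by 0.29 ± 0.05 (limma adjusted p = 0.011). The other probe sets were at 0.28 and 0.20 and did not pass. The call was lost when 8 of the 12 arrays were left out in turn, and held as the mean of all 4 probe sets (0.26, limma adjusted p = 0.0254).

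Timp1 and Timp2 did not pass. Timp1, which is often raised in fibrosis, lay at 9.28, 9.10 and 8.74 in left shunt pools, against 8.80, 8.70 and 8.77 in left sham pools. Right atrium values were 9.19, 8.91 and 8.67 in shunt pools, against 8.55, 8.65 and 8.54 in sham pools. The right atrial groups did not overlap and the left ones did, through replicate 3. The averaged difference of 0.31 ± 0.10 had an adjusted p of 0.101 (limma). It came to 0.39 once left atrium shunt replicate 3 was left out (limma adjusted p = 0.0163). Timp2 differed by 0.18 ± 0.06 on average (limma adjusted p = 0.123).

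Adam23, an inactive ADAM known as a cell adhesion protein of the nervous system, rose in the right atrium. It lay at 7.06, 7.14 and 7.13 in right shunt pools, against 6.76, 6.67 and 6.77 in right sham pools. Left atrium values were 6.48, 6.56 and 6.71 in shunt pools, against 6.37, 6.35 and 6.26 in sham pools. Shunt pools were above sham pools in both atria. The rise was 0.38 ± 0.08 in the right (1.30-fold, limma adjusted p = 0.0227) and 0.32 ± 0.05 averaged (limma adjusted p = 0.00655), while the left effect of 0.26 did not pass (limma adjusted p = 0.149). The right atrial call was lost without any 1 of the 6 right atrium arrays, and the averaged call with none of the 12. Its other 2 probe sets were at -0.05 and 0.03 in the right atrium, and as the mean of all 3 probe sets neither call passed (0.12 in the right, 0.11 averaged).

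Markers of ventricular muscle moved with the right atrial comparison. Of 7, 6 rose in right shunt pools. The list averaged 8.22, 9.13 and 8.98 in right shunt pools, against 7.84, 7.68 and 7.75 in right sham pools. With replicate 1, the pool lowest in these markers, as the only right shunt pool, the Adam23 difference was 0.33, against 0.38 with all 3. With 1 array its spread is taken from the other groups, and whether the difference passes there says nothing about stability. The beta-actin 3′ minus 5′ difference was 1.91 to 2.03 in right shunt and 1.58 to 1.82 in right sham pools. Neuronal markers averaged 4.06 to 4.16 in right shunt and 4.08 to 4.11 in right sham pools. The part of these in the Adam23 value was not tested.

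Adamts12, which cuts the cartilage protein Comp, fell averaged over both atria. Left values were 6.92, 7.17 and 7.09 in shunt pools, against 7.41, 7.29 and 7.53 in sham pools. Right values were 7.20, 7.24 and 7.28 in shunt pools, against 7.56, 7.26 and 7.49 in sham pools. The left groups did not overlap, and the right groups overlapped narrowly. The averaged change was -0.27 ± 0.07 (limma adjusted p = 0.0459), and it was lost when 9 of 12 arrays were left out in turn.

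**Figure D4:**
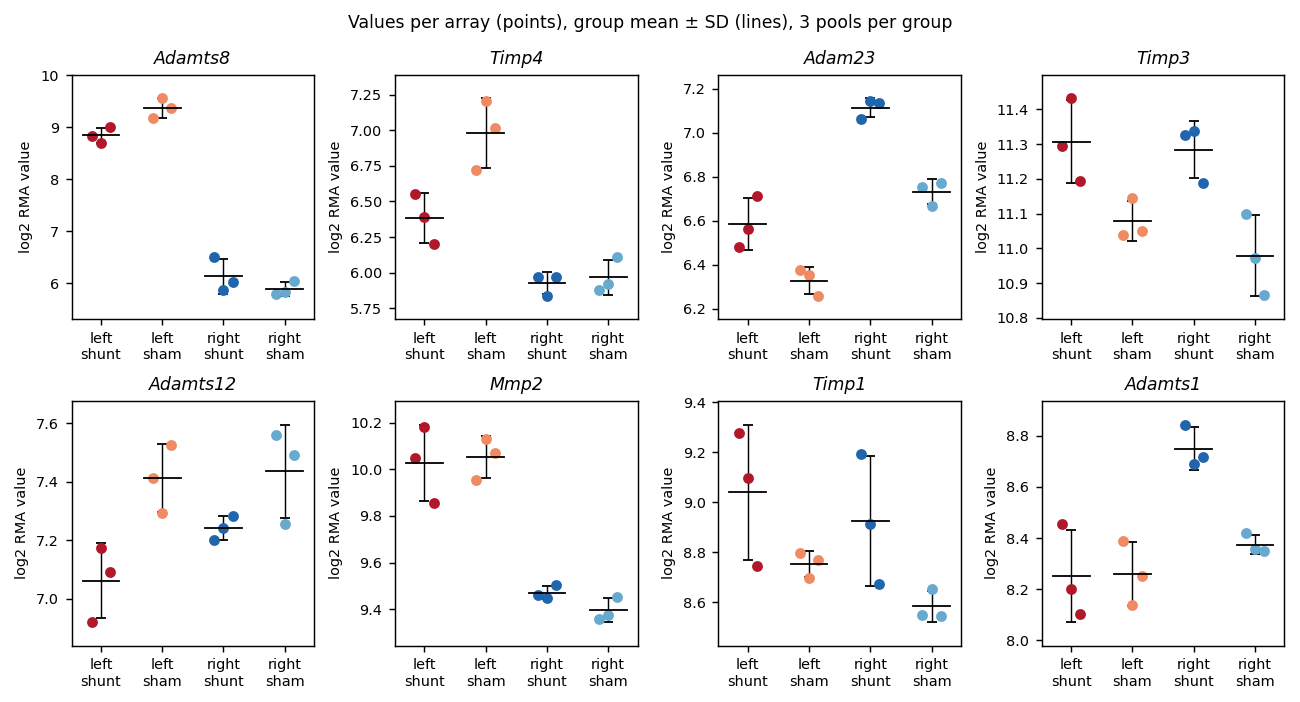
Log2 RMA value (y axis, separate for each gene) of 8 members on each of the 12 arrays (points), with the group mean and SD (3 pools per group) as lines. Adamts8, Timp4 and Mmp2 part the left from the right atrium, Timp4 is lower in left shunt than in left sham pools, and Adam23 and Timp3 are higher in shunt than in sham pools of each atrium.

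Proteases with a known place in cardiac remodelling showed no call after the shunt. Mmp2 differed by -0.02 ± 0.09 in the left and 0.08 ± 0.09 in the right, with 95% intervals of -0.21 to 0.16 and -0.11 to 0.26. Mmp14 was at -0.38 ± 0.21 in the left and 0.14 ± 0.21 in the right on its brighter probe set. The dimmer Mmp14 probe set did not show the left fall. It lay at 6.42, 6.31 and 6.24 in left shunt pools, against 6.34, 6.17 and 6.05 in left sham pools. In the right it lay at 5.79, 5.60 and 5.90 in shunt pools, against 5.59, 5.61 and 5.44 in sham pools. These groups overlapped in both atria. Mmp9 was at 0.16 and -0.07, Mmp3 at -0.08 and -0.01, Mmp12 at 0.17 and 0.06, Mmp11 at -0.07 and -0.01 and Mmp15 at -0.04 and -0.06. Adam17 was at 0.09 in the left and 0.28 in the right, and Adam10 at 0.07 and 0.09. Adam9 and Adam19 were at -0.13 and -0.01 in the left and at 0.02 and -0.08 in the right.

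Several members came near the threshold in the right atrium. Adamts1, an early-response protease that cuts versican, lay at 8.84, 8.69 and 8.72 in right shunt pools, against 8.42, 8.36 and 8.35 in right sham pools, without overlap. The difference was 0.38 ± 0.10 (limma adjusted p = 0.0565), against -0.01 ± 0.10 in the left. Without left atrium shunt replicate 3 its adjusted p was 0.0316 (limma). Adam15 was at 0.35 ± 0.11 (limma adjusted p = 0.0959) and the dim Adam3a at -0.33 ± 0.09 (limma adjusted p = 0.0728). In the left atrium Adamts10, which binds fibrillin, was at 0.35 ± 0.09 (limma adjusted p = 0.0871), with every shunt pool above every sham pool. Shunt pools lay above sham pools for 8 members in the right atrium and below for 5, against 14.9% and 13.5% of all probe sets. In the left atrium the counts were 6 above and 5 below, against 7.69% and 9.21% of all probe sets.

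Adamts8 was at -0.52 ± 0.15 in the left, with every shunt pool under every sham pool, and at 0.24 ± 0.15 in the right (limma adjusted p = 0.148 and 0.422). Adamts5 and Adamts4, the main aggrecanases, were at 0.09 and 0.17 in the left and at 0.09 and 0.13 in the right. Adamts4 stayed under the median of all probe sets on every array. Adamts5 lay at 7.84, 7.72 and 8.69 in left shunt pools, the last being replicate 3, against 8.07, 7.85 and 8.07 in left sham pools. Its dimmer probe set was lower in left shunt pools without overlap, at 7.30, 6.68 and 7.43, against 7.49, 7.56 and 7.45 in left sham pools. Adamts9 was at 0.01 and 0.27, and Adamtsl4 at -0.11 and -0.07. Of members called in no comparison and outside a fixed set of well-known ones, Mmp23 and Adamtsl2 had the smallest p-values in the left atrium. Mmp23 was at 0.28 in the left and 0.11 in the right, and Adamtsl2 at 0.28 and 0.23. In the right Mmp7 (-0.19) and Adam18 (-0.25) had the smallest, both on dim probe sets. Adam8 (-0.34), Mmp28 (-0.37) and Adamts7 (-0.21), called between the atria, had smaller p-values in the right. They did not pass (limma adjusted p = 0.133, 0.139 and 0.239). Nor did Adamts15 (-0.34), Adam6 (0.21) and Mmp24 (-0.25) in the left, which came before Adamtsl2 (limma adjusted p = 0.229, 0.301 and 0.325). Mmp16 was at -0.20 and 0.09, Adam33 at 0.12 and -0.14, Mmp17 at 0.02 and 0.16, and Adam11 at -0.05 and -0.17. Left shunt replicate 3, which differed in fat and nerve markers, was the highest left shunt pool for Adamtsl2 and Adam33. Adamtsl2 was 8.26 there, against 7.62 and 7.78 in the other left shunt pools, and Adam33 was 7.40, against 6.79 and 6.61.

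Whether the shunt acted differently on the atria was asked by the left effect minus the right effect. No member passed (limma), against 0.0258% of all probe sets, while 10 of the 55 had an unadjusted p under 0.05 (background 14.4%). The values farthest from 0 were those of Adamts8, -0.76 ± 0.22 (limma adjusted p = 0.185), and of Timp4, given above. Among the others, Adam8 was at 0.52 ± 0.16, Mmp14 at -0.51 ± 0.29, Adam18 at 0.50 ± 0.19 and Adam3a at 0.48 ± 0.13. Adamts10 was at 0.43 ± 0.12, Adam15 at -0.40 ± 0.15 and Adamts1 at -0.38 ± 0.14. Adam8, Adam18 and Adam3a stayed under the median of all probe sets on every array. On the dimmer probe sets of Adam8, Mmp14 and Adamts10, shunt means lay above sham means in both atria. Unequal effects of such size were not seen there. Intervals were wide, for Adamts8 from -1.23 to -0.29, so unequal effects were neither shown nor bounded closely.

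Other genes of the proteolytic pathway were counted from lists chosen, like the members, with earlier results of these data known. Of 21 measured activators and further inhibitors, none was called in the left atrium (0.751% of all probe sets), 2 in the right (2.97%) and 3 averaged (3.86%). In the right, Plaur, the urokinase receptor, rose by 0.43 ± 0.09 and Rhbdf1, a carrier of Adam17 to the cell surface, by 0.31 ± 0.07 (limma adjusted p = 0.0248 and 0.0377). Plaur lay between 4.29 and 4.93 over all arrays, under the median of all probe sets. Averaged over both atria, Serpine2, an inhibitor of plasminogen activators, rose by 0.90 ± 0.17 (limma adjusted p = 0.0117), Pcolce, an enhancer of collagen processing, by 0.32 and Rhbdf1 by 0.22. Of 16 other matrix proteases, 1 was called in the right and 2 averaged, against the same backgrounds, and none in the left. Ctss, a macrophage cathepsin, rose by 0.47 in the right, and Ctsl (0.21) and Prss23 (0.28) rose averaged. Macrophage markers moved with the right atrial values: 3 of 11 rose, and their mean level was 7.81 to 7.87 in right shunt and 7.32 to 7.43 in right sham pools. Their part was not tested.

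Substrates of these proteases were also counted from a list. Of 33 measured, 5 rose and 1 fell in the right atrium, and 1 rose in the left, against 2.97% and 0.751% of all probe sets called in either direction. The basement membrane collagen Col4a2 rose by 0.49 ± 0.10 in the left and 0.91 ± 0.10 in the right (limma adjusted p = 0.0419 and 0.00109). Col4a1 (0.72), Fbn1 (0.56), the fibrillin that ADAMTS-like proteins bind, Il6r (0.41) and Col5a1 (0.39) rose in the right. Tnf, the cytokine released by Adam17, fell there by 0.38. Averaged over both atria 5 rose (3.86% of all probe sets called), among them Lrp1 (0.23), a receptor that clears MMP and TIMP complexes. The median effect on this list was 0.06 in the left and 0.20 in the right, against -0.001 and -0.003 for all probe sets.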

How the data were processed

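Deposited values were log2 expression values per probe set from 1-colour arrays, 1 column for each of 12 samples, made by the authors with RMA, a tool that the submitters' processing notes name. Because it gives all arrays the same distribution of values, a change shared by most transcripts cannot be seen. Its version is not given in the sources used here. Array medians lay between 5.44 and 5.47, and the number of arrays limits the precision.

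Of 31099 probe sets, 57 controls were left out and 31042 tested. The array annotation named 1 gene for 20826, several for 436 and none for 9780; no member symbol stood in a probe set with several genes. Group means were estimated on all 12 arrays together by limma 3.58.1 (lmFit, contrasts.fit, eBayes; R 4.3.3), with two-sided tests and Benjamini-Hochberg adjustment over the 31042 probe sets at 0.05. Every adjusted p in the text comes from this limma fit or its named alternative. P-values measure only the spread between pools. There were 6 comparisons: shunt minus sham in each atrium and averaged, left minus right in shunt and in sham animals, and the difference of the shunt effects. Code was tested on simulated data.

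Members described with values were those called in at least 1 comparison (32), a fixed set of well-known members, the brightest 5 of the rest and the 3 of the rest with the smallest p in each comparison. Adam12 and Adamts2, in the fixed set, are not analysed here. Members and lists were chosen with earlier results of these data known. Replicate numbers were not used as pairs in the fit reported.

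The values were computed again after removing dim probe sets, after another quantile normalization, with each array's median subtracted, with trend and robust eBayes, with array weights, on the compared groups only, with a block for the replicate number, with genes in place of probe sets (their brightest probe set, or the average of them) and without each array in turn. A right atrium fit with shunt replicate 1 alone was chosen after seeing the data.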

Additional observations from a re-analysis of the deposited data

How the results depend on the processing

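The shunt counts rest on values near the threshold. In the right atrium the count of members called was 1 as reported and 0 after quantile normalization again. It was 3 without dim probe sets, with trend and robust options or as the mean of all probe sets of a gene, 6 with array weights, 4 when the right atrium was fitted without the left or with 1 probe set per gene and 2 with the replicate block. With shunt replicate 1 alone, added after seeing the data, it was 0, which says nothing about stability, since 1 array borrows its spread from the other groups. Leaving out each array gave 0 to 4: 0 without any right atrium array, 2 without left atrium shunt replicate 1 and 4 (Adam15, Adam17, Adam23 and Adamts1) without left atrium shunt replicate 3. In the left atrium the count was 1 as reported, 2 (Timp4 and Adamts10) without dim probe sets and 0 after quantile normalization again, when the left atrium was fitted without the right or with the replicate block. Leaving out each array gave 0 to 1. Averaged, it was 3 as reported, 5 with trend and robust options and 6 with array weights, and 1 to 5 when each array was left out, with 5 without left atrium shunt replicate 3. The left minus right counts kept within 1.5 times, at 19 to 26 in shunt and 17 to 27 in sham animals, and the interaction count was 0 throughout. Of 23 shunt and 25 sham left minus right calls, 19 and 15 passed in all of these alternatives that tested them, single arrays left out included, Adamts8, Timp4, Timp2 and Mmp2 among them. None of the members called changed direction. The replicate block lost the calls of Timp4 in the left atrium, Adamts12 averaged and Adam1a between sham atria (limma adjusted p = 0.0769, 0.0595 and 0.0599), and left 23 and 24 left minus right calls in shunt and sham animals. The labels do not pair the pools, and of 18 same-numbered pairs between groups 3 had a residual correlation over 0.1 (-0.10 to 0.15). Those 3 were among the 6 left and right pairs of 1 condition (0.08 to 0.15), and each of the 12 arrays correlated best with its own number in the other atrium of its condition, a hint from the data and not the design. The cause of these changes was not tested. Weak signal limits what these arrays show of the 21 members under the median on every array.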
